A study of Mus musculus with 8 samples.

Results

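The neuropeptides Pomc, Agrp, Npy, Cartpt, Hcrt, Pmch, Gal and Nts, which act in feeding and arousal, were examined in arrays of hypothalamus and liver. A probe was taken as a member when the platform annotation gave it one of these 8 gene symbols. That rule found 9 probes for 7 genes, of 16593 genes with a named probe. Agrp had no probe and was not measured here. Total RNA of each sample was read on a separate Illumina bead array with a single dye, and the comparison set 4 hypothalamus arrays against 4 liver arrays. All 8 samples came from male C57BL/6 mice lacking fibromodulin (Fmod_KO) that were killed at 13 weeks of age, fed ad libitum and kept on a daily cycle of light and dark. Both tissues therefore carried the deletion, and the wild-type controls belong to another series that was not analysed here. The series text describes 4 mice from which both organs were dissected, but no label ties a replicate number to one animal across the organs.

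Neurons make these peptides as longer precursors that are cut in the secretory pathway and released from dense-core vesicles. In the arcuate nucleus, neurons that express Pomc and Cartpt reduce food intake, while neurons that express Npy and Agrp promote it. Both populations respond to leptin and insulin and send axons to neurons that carry melanocortin and neuropeptide Y receptors. In the lateral hypothalamus, separate neurons express Hcrt, whose orexin peptides sustain wakefulness, and Pmch, whose product melanin-concentrating hormone promotes feeding and sleep. Gal and Nts are expressed in several hypothalamic nuclei, including lateral neurons that contact the orexin cells.

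Promoter sequences of RefSeq for the GRCm38.p6 build were available for all 7 measured genes. The stretches below are the 250 bases before the annotated start, printed 5′ to 3′ along the gene. They are shown for each measured gene, so that the upstream sequences of the peptides can be read side by side. Capitals mark matches to 4 motifs. These are the TATA box TATAAA on the sense strand, and, on either strand, the cAMP response element TGACGTCA, the AP-1 site TGANTCA and the homeodomain core TAATTA.
Pomc (chr12:3954695-3954944, + strand): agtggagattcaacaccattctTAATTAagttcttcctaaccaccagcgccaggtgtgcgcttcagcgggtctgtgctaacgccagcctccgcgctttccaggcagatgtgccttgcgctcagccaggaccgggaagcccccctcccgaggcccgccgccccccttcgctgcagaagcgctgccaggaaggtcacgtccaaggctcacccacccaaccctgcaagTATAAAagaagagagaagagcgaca
Npy (chr6:49822460-49822709, + strand): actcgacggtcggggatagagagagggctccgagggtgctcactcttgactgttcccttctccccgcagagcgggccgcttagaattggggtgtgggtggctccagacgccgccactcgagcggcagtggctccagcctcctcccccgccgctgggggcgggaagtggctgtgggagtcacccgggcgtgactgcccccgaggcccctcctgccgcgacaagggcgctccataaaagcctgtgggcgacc
Cartpt (chr13:99900684-99900933, - strand): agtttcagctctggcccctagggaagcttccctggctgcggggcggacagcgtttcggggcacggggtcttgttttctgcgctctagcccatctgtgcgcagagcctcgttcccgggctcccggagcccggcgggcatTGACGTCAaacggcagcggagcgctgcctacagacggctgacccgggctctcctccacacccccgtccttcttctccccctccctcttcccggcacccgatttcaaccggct
Gal (chr19:3414545-3414794, - strand): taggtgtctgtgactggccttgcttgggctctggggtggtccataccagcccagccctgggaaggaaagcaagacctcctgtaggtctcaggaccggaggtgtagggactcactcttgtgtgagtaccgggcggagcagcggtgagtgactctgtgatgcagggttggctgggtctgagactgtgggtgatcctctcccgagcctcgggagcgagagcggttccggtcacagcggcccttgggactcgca
Hcrt (chr11:100762932-100763181, - strand): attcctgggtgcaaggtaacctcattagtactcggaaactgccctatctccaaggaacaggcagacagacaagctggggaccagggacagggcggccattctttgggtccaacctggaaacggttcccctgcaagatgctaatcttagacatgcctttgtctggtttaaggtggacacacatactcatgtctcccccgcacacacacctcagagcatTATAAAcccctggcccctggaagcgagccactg
Pmch (chr10:88090822-88091071, + strand): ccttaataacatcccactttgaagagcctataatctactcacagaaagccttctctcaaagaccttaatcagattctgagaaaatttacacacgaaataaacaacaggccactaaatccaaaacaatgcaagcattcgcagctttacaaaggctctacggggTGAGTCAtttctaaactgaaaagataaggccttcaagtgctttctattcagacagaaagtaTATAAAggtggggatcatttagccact
Nts (chr10:102490419-102490668, - strand): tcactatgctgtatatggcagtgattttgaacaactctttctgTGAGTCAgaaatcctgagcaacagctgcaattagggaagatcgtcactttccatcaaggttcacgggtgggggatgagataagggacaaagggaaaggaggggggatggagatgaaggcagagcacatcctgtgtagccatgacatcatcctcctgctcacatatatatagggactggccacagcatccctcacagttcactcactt

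The TATA box matched 33 to 28 bases before the start in Hcrt, 27 to 22 bases before it in Pmch and 25 to 20 bases before it in Pomc, while 7.59% of 32851 promoters of this length held it. The cAMP response element matched in Cartpt, 112 to 105 bases before the start, and in 1.55% of all promoters. The AP-1 letters matched in Pmch, 88 to 82 bases before the start, and in Nts, 207 to 201 bases before it, against 6.75% of all promoters. The homeodomain core matched in Pomc, 228 to 223 bases before the start, against 4.84% of all promoters. The windows of Npy and Gal held none of the 4 motifs. A match describes letters in the window and is not evidence of a bound factor.

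Between 13285 and 13753 probes were detected on a hypothalamus array and between 10307 and 10828 on a liver array, out of 25697. A probe counts as detected where its deposited detection p-value is under 0.05. Correlations over the tested probes were 0.976 to 0.993 within a tissue and at most 0.455 between tissues. Fmod itself, the deleted gene, had 2 probes. Probe ILMN_2999762 was detected on 1 hypothalamus array and no liver array, and probe ILMN_1230020 on no array. The position of these probes relative to the deletion is unknown here, so they do not check the genotype. Of 10 genes listed as general markers of neurons, 7 were tested and 7 were higher in hypothalamus, with a median log2 difference of 6.40. Of these 7, 4 were detected on at most 1 liver array and so were tested through hypothalamus alone. Of the 10, 2 were detected on no hypothalamus array. Of 10 hepatocyte markers, 8 were tested and 8 were higher in liver, with a median of −8.60. All of these 8 except Ttr and Apoa1 were detected on at most 1 hypothalamus array and so were tested through liver alone. By comparison, 43.1% of all tested genes were called in the direction of hypothalamus and 37.3% in that of liver, at the threshold below. The summed level of the neuron markers was 42721 to 47524 on hypothalamus arrays and 333.15 to 403.57 on liver arrays. Hypothalamus replicate 3 stood apart from the other arrays of its tissue. Its transthyretin gene Ttr, which is abundant in choroid plexus and in liver, had a normalized log2 intensity of 14.32, while Ttr lay at 5.42, 7.88 and 7.79 on hypothalamus replicates 1, 2 and 4. Of all genes detected on the 4 hypothalamus arrays, 25.6% were highest on replicate 3. All 8 choroid plexus markers were highest on replicate 3 among the hypothalamus arrays, and 4 of the 8 were detected on all 4. Their summed normalized intensity was 23675 there and 1527.5 to 2023.1 on the other hypothalamus arrays. Of the 10 hepatocyte markers, 7, among them Alb and Ahsg, were detected on no hypothalamus array. The other 3 were Ttr and Apoa1, detected on all 4 hypothalamus arrays, and Serpina1a, detected on 1. Apoa1 read 6.66, 6.84, 6.55 and 6.91 on hypothalamus replicates 1 to 4. The differences and spreads of the peptides and the counts of the pathway lists are given below with and without this array.

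The first question was how far each peptide gene differs between hypothalamus and liver. Values are log2 intensities after background correction and quantile normalization of the 8 arrays. The difference was tested with limma over 13498 probes detected on at least 4 arrays, at a Benjamini-Hochberg adjusted p threshold of 0.05. Of the 9 probes, 8 were tested, and these 8 were called higher in hypothalamus. Among all tested probes 41.8% were called higher in hypothalamus and 79.6% were called in either direction. These 8 passed the filter through hypothalamus alone, since none was detected on more than 1 liver array, so this count is a description and carries no weight of its own. Of the 8, 7 were detected on all 4 hypothalamus arrays and no liver array, a pattern found in 17.3% of tested probes. Hypothalamus lay above liver with no overlap between arrays for these 8 probes and for 39.5% of all tested probes. For a probe detected on no liver array the fold is a lower bound. It sets the hypothalamus mean against the liver mean in which each array contributes the higher of the probe's own value and the lowest value among that array's detected probes. In bulk tissue, fewer cells that express a gene cannot be told apart from less RNA per cell.

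Among the arcuate genes, Pomc encodes the precursor of the melanocortins and of beta-endorphin. Its probe ILMN_2745802 read 8.85, 8.92, 8.60 and 8.85 on hypothalamus replicates 1 to 4, against 4.32, 4.38, 4.34 and 4.41 on liver replicates 1 to 4. The hypothalamus values lay within a narrow band well above the liver values, none of which was detected. The means were 8.80 ± 0.14 in hypothalamus and 4.37 ± 0.04 in liver (SD, n = 4 each), a log2 difference of 4.44 (SE 0.10, limma adjusted p = 9.44e-11). Pomc was at least 9.31-fold higher in hypothalamus.

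Npy encodes neuropeptide Y, a peptide that stimulates feeding when released from arcuate neurons. Its probe ILMN_2946520 read 10.87, 11.15, 10.14 and 11.71 in hypothalamus and 4.48, 4.61, 5.03 and 4.39 in liver. The tissues did not overlap, and replicate 3 was the lowest hypothalamus array while replicate 4 was the highest. The means were 10.97 ± 0.65 in hypothalamus and 4.63 ± 0.28 in liver (SD, n = 4 each), and the log2 difference was 6.34 (SE 0.30, limma adjusted p = 1.70e-08). In hypothalamus Npy was at least 41.8-fold higher.

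Cartpt encodes the precursor of cocaine- and amphetamine-regulated transcript peptides, which reduce food intake and are also made outside the arcuate nucleus. Probe ILMN_2719755 read 12.94, 13.01, 12.59 and 13.05 in hypothalamus and 4.40, 4.43, 4.62 and 4.36 in liver. Probe ILMN_3123063 read 12.06, 12.46, 11.74 and 12.42 in hypothalamus and 5.91, 4.67, 4.63 and 4.67 in liver. Both probes separated the tissues, and both were lowest on replicate 3 among the hypothalamus arrays. The first averaged 12.89 ± 0.21 in hypothalamus and 4.45 ± 0.11 in liver and the second 12.17 ± 0.34 in hypothalamus and 4.97 ± 0.63 in liver (SD, n = 4 each). The first gave a log2 difference of 8.44 (SE 0.13, limma adjusted p = 5.39e-12), at least 159-fold higher in hypothalamus. The second gave 7.20 (SE 0.30, limma adjusted p = 6.54e-09), and it was detected on liver replicate 1, with a detection p of 0.0163. Without that liver array the difference of the second probe was 7.53.

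In the lateral hypothalamic pair, Hcrt encodes the orexin precursor. Probe ILMN_2592983 read 12.47, 12.11, 12.56 and 12.25 in hypothalamus and 4.63, 4.68, 4.60 and 4.71 in liver. Here replicate 3 was the highest hypothalamus array and replicate 2 the lowest. The means were 12.35 ± 0.21 in hypothalamus and 4.66 ± 0.05 in liver (SD, n = 4 each), a log2 difference of 7.69 (SE 0.12, limma adjusted p = 6.18e-12). Hcrt was at least 109-fold higher in hypothalamus.

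Pmch encodes the precursor of melanin-concentrating hormone, together with neuropeptide E-I. Probe ILMN_2955329 read 14.39, 14.39, 14.44 and 14.47 in hypothalamus and 4.87, 4.54, 4.38 and 4.50 in liver. After normalization the 4 hypothalamus arrays were almost identical, and no liver array detected the probe. The deposited signals were 19306, 19885, 16740 and 20592 on hypothalamus replicates 1 to 4. The means were 14.42 ± 0.04 in hypothalamus and 4.57 ± 0.21 in liver (SD, n = 4 each). The log2 difference of 9.85 (SE 0.12, limma adjusted p = 1.62e-12) was the largest among the tested probes of these peptides, with Pmch higher by at least 457-fold. The highest normalized value on any array was 15.2, and whether this probe was near its upper limit was not tested.

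Of the peptides made in several nuclei, Gal encodes galanin, which acts on feeding and sleep. Probe ILMN_2776034 read 12.01, 12.02, 11.59 and 12.32 in hypothalamus and 4.36, 4.48, 4.38 and 4.36 in liver. The tissues did not overlap, with replicate 3 again lowest and replicate 4 again highest in hypothalamus. Gal averaged 11.99 ± 0.30 in hypothalamus and 4.40 ± 0.06 in liver (SD, n = 4 each). The log2 difference was 7.59 (SE 0.15, limma adjusted p = 2.87e-11), at least 84.5-fold higher in hypothalamus.

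Nts encodes the neurotensin precursor, and its peptide lowers food intake in rodents. Probe ILMN_2929906 read 6.12, 6.60, 6.11 and 6.75 in hypothalamus and 4.42, 5.54, 4.38 and 4.56 in liver. Liver replicate 2 was the highest of its tissue but stayed below every hypothalamus array, with a detection p of 0.0652. The tissue means were 6.40 ± 0.33 in hypothalamus and 4.73 ± 0.55 in liver (SD, n = 4 each). The log2 difference was 1.67 (SE 0.27, limma adjusted p = 2.37e-04), the smallest of the 8 tested probes, with Nts higher by at least 1.75-fold. The second Nts probe, ILMN_1221615, was detected on no array and was not tested. It read 4.45, 4.80, 4.64 and 4.81 in hypothalamus and 4.48, 4.45, 4.39 and 4.53 in liver, and these values overlapped. In a fit to all probes its difference was 0.21 (SE 0.10, limma adjusted p = 0.124). This probe thus gave no reading of Nts above background in either tissue.

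**Figure D1:**
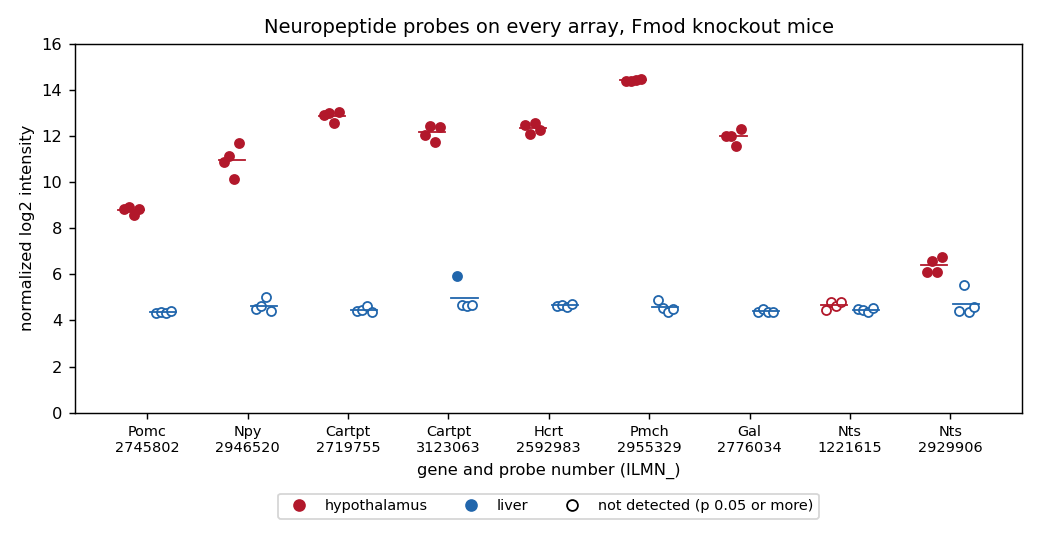
Normalized log2 intensity (vertical axis) of the 9 neuropeptide probes on each array (points, replicates 1 to 4 from left to right), with hypothalamus left of liver and a line at each mean; open points were not detected. The 8 tested probes lie above their liver values on every hypothalamus array, and the second Nts probe, ILMN_1221615, is near background in both tissues.

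The bounds and differences depend on the background correction, and the folds given as at least a value hold for the main values only. The log2 bound was 3.22 for Pomc and 8.84 for Pmch, above their differences without that correction. Without it, and with quantile normalization alone, the log2 difference was 2.07 for Pomc, 3.88 for Npy, 5.82 for Cartpt ILMN_2719755, 4.93 for Cartpt ILMN_3123063, 5.19 for Hcrt, 7.27 for Pmch, 4.96 for Gal and 0.52 for Nts, and each was still called. Without hypothalamus replicate 3 the difference was 4.48 for Pomc, 6.63 for Npy, 8.58 for Cartpt ILMN_2719755, 7.38 for Cartpt ILMN_3123063, 7.64 for Hcrt, 9.89 for Pmch, 7.74 for Gal and 1.73 for Nts. The largest of these shifts, 0.288, belonged to Npy.

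**Figure D2:**
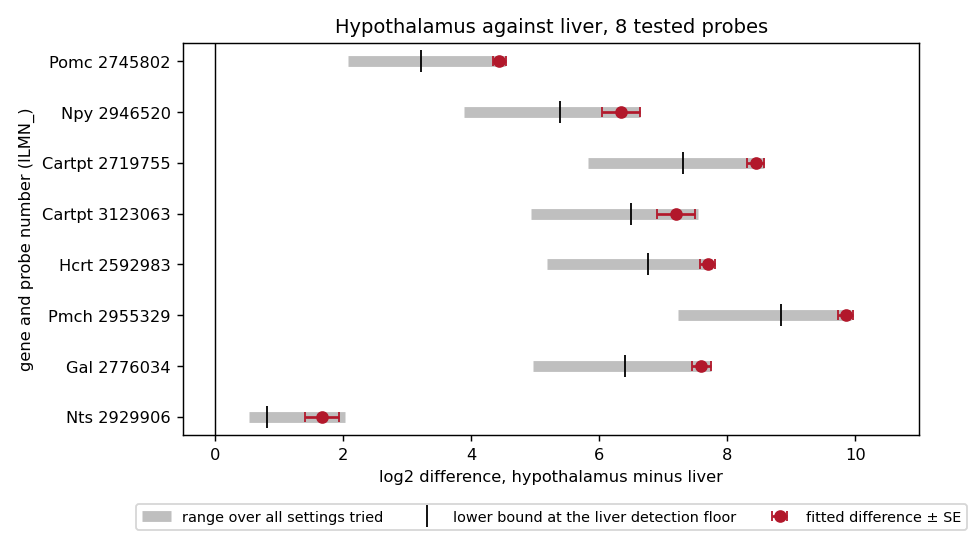
Log2 difference, hypothalamus minus liver, of the 8 tested probes with the standard error of the limma fit (red points and bars). Black ticks mark the lower bound at the liver detection floor and grey bars the range over all settings tried. Pmch has the largest difference (9.85) and Nts the smallest (1.67).

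The second question was how the peptides vary among the 4 hypothalamus arrays of knockout mice. No groups are labelled within the tissue, so these values are descriptions with no test. Npy had the largest spread, with a standard deviation of 0.65 and a range of 2.96-fold, and 98.9% of the 11941 probes detected on all 4 hypothalamus arrays had a smaller one. Over those probes the median SD was 0.165 and the 95th percentile was 0.415, and 4.01% had a range beyond 2-fold. Npy alone among the peptides passed 2-fold. Cartpt ILMN_3123063 followed with an SD of 0.34 (range 1.65-fold), Nts with 0.33 (1.56-fold) and Gal with 0.30 (1.67-fold). The place of Nts depended on the processing: its SD was 0.127 without background correction and 0.166 in the authors' values, against 0.296 and 0.250 for Gal. Cartpt ILMN_2719755 and Hcrt each had an SD of 0.21 and a range of 1.37-fold, and Pomc had 0.14 and 1.25-fold. Pmch had an SD of 0.04 and a range of 1.05-fold, smaller than all but 1.72% of the detected probes. Pmch had the smallest SD of the 8 probes under all 6 settings compared, but its SD was 0.0785 under median scaling and 0.0941 under cyclic loess, where 7.71% and 20.2% of detected probes had a smaller one. Without replicate 3 the SD was 0.43 for Npy, 0.22 for Cartpt ILMN_3123063, 0.05 for Cartpt ILMN_2719755, 0.18 for Gal, 0.04 for Pomc and 0.05 for Pmch, while Nts stayed at 0.33 and Hcrt was at 0.18. That array thus carried most of the spread of Pomc and of Cartpt ILMN_2719755, and Npy still had the widest spread of the 8 probes without it.

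**Figure D3:**
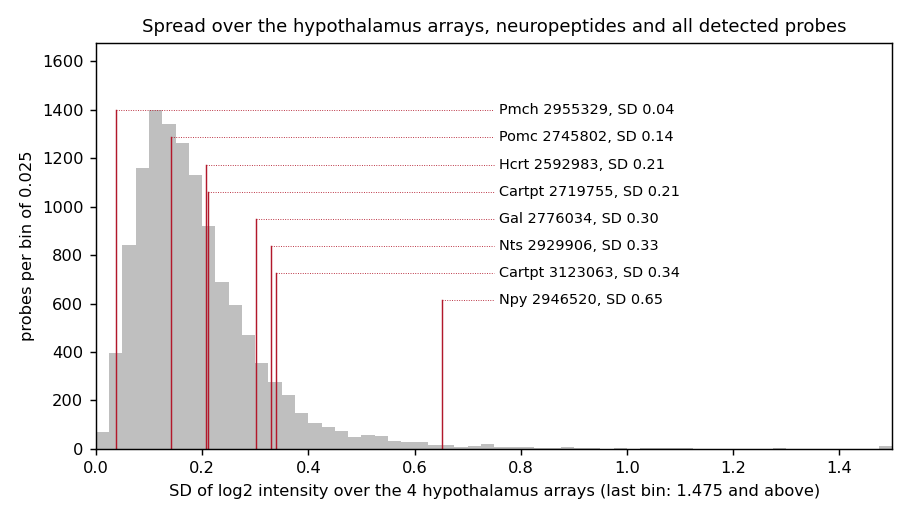
Histogram of the SD of log2 intensity over the 4 hypothalamus arrays for the 11941 detected probes, with the 8 detected neuropeptide probes as red lines. Npy lies in the upper tail at 0.65 and Pmch near the lower end at 0.04.

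The deviations from the mean of each gene over the hypothalamus arrays, on the log2 scale, show which arrays carried the spread. Npy deviated by −0.09, 0.18, −0.83 and 0.74 on replicates 1 to 4. Gal deviated by 0.02, 0.04, −0.40 and 0.34, a similar pattern at smaller size. Cartpt ILMN_3123063 deviated by −0.11, 0.29, −0.43 and 0.25, and Nts by −0.28, 0.20, −0.28 and 0.36. These genes were lowest on replicate 3, where Nts was almost equal to its replicate 1, and high on replicate 4. Hcrt ran the other way, with 0.12, −0.24, 0.22 and −0.10. By each gene's brightest probe, 5 of the 7 genes were lowest on replicate 3, against 26.4% of all genes detected on the 4 hypothalamus arrays, and 5 of 7 were highest on replicate 4, against 24.8% of detected probes. Hcrt was the 1 gene of 7 that was highest on replicate 3, against 25.6% of all genes detected on those arrays. By the same brightest probes, which for Cartpt is ILMN_2719755, Npy, Cartpt, Gal and Nts, 4 of the 7, were lowest on replicate 3 and also highest on replicate 4, as were 9.07% of detected probes. The other Cartpt probe was highest on replicate 2.

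**Figure D4:**
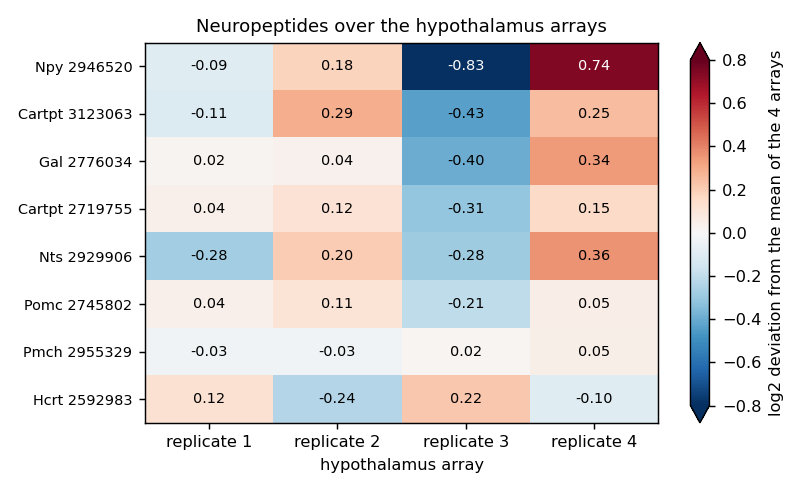
Deviation of each tested peptide probe from its own mean over the 4 hypothalamus arrays, in log2 units (red above the mean, blue below), with a row per probe and a column per array. Replicate 3 is low for Npy (−0.83) and Gal (−0.40) and high for Hcrt (0.22), while Pmch stays within 0.05 of its mean.

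Replicate 3 lay below the mean of the other 3 hypothalamus arrays by 1.10 for Npy, by 0.58 for Cartpt ILMN_3123063, by 0.53 for Gal, by 0.41 for Cartpt ILMN_2719755, by 0.38 for Nts and by 0.27 for Pomc, and above it by 0.29 for Hcrt and by 0.02 for Pmch. Under 4 other normalizations of the same arrays, and with the hypothalamus arrays normalized alone, the Npy value ran from −1.15 to −0.90 and the Gal value from −0.63 to −0.43, so both kept their direction. The value stayed below 0 for Cartpt ILMN_3123063, from −0.66 to −0.46, and for Cartpt ILMN_2719755, from −0.53 to −0.32. It ran from −0.52 to −0.14 for Nts and from −0.45 to −0.21 for Pomc, so these 2 kept their direction as well. The Hcrt value stayed above 0, from 0.09 to 0.29, and the Pmch value changed sign, from −0.06 to 0.14. Among the probes that kept their direction, the size changed by over 1.5 times for Nts, Pomc, Cartpt ILMN_2719755 and Hcrt. On the deposited signals, before any normalization, 6 of 7 genes were lowest on replicate 3, where the median signal of all probes was also lowest (142.4, against 165.02 to 169.08 on the other hypothalamus arrays).

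Markers of neighbouring tissues also varied over the hypothalamus arrays, with patterns that differed from tissue to tissue. Of all genes detected on the 4 hypothalamus arrays, 25.6% were highest on replicate 3, and the share lowest on replicate 4 was not computed. Of 8 thalamus markers detected on these arrays, 6 were highest on replicate 3 and 7 were lowest on replicate 4. Their median deviation was 0.77 on replicate 3 and −0.71 on replicate 4. On replicate 3 the 8 thalamus genes deviated unequally. The vesicular glutamate transporter gene Slc17a6 deviated there by 0.05, the calretinin gene Calb2 by 0.03, Rgs16 by 0.26 and Ntng1 by 0.61, while Tcf7l2 deviated by 0.94, Ramp3 by 1.26, Gbx2 by 1.31 and Prkcd by 2.06. Prkcd was not called between the tissues, but was called higher in liver without replicate 3. Among the 5 striatum markers, 4 were highest on replicate 3. Of 6 cortex and hippocampus markers detected on all 4 hypothalamus arrays, 3 were highest there, and of 7 detected on at least 1, 4 were. Slc17a7, detected on 3 hypothalamus arrays, read 5.17, 4.85, 7.41 and 5.01 on replicates 1 to 4. On replicate 4 the median deviation was 0.19 for the striatum markers and 0.06 for the 6 cortex and hippocampus markers. For the 4 choroid plexus markers detected on all 4 hypothalamus arrays, the median deviation on replicate 4 was −0.51. Of the 11 pituitary markers, Gh read 4.43, 4.37, 8.79 and 5.57 and Prl 4.58, 4.49, 7.45 and 4.71 on hypothalamus replicates 1 to 4, while Tshb read 5.53, 9.88, 4.79 and 7.70 and Cga 5.80, 8.07, 4.77 and 7.82. Trhr, the one pituitary marker detected on all 4 hypothalamus arrays, read 7.26, 7.44, 7.30 and 7.06, and Tbx19, detected on 1, read 4.35, 4.79, 4.72 and 4.94. Pomc, which pituitary cells also express, was lowest on replicate 3, where Gh and Prl were highest, and 8.92 on replicate 2, where Tshb and Cga were highest. The summed level of the thalamus markers ranged over 26766 to 32649 in hypothalamus and 1872.6 to 3886 in liver, and that of the pituitary markers over 438.9 to 1571.8 in hypothalamus and 247.28 to 273.2 in liver. Pituitary markers Fshb, Ghrhr, Gnrhr, Lhb and Pitx1 were detected on no hypothalamus array. Whether the makeup of the dissected tissue had a part in the spread of the peptides was not tested.

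**Figure D5:**
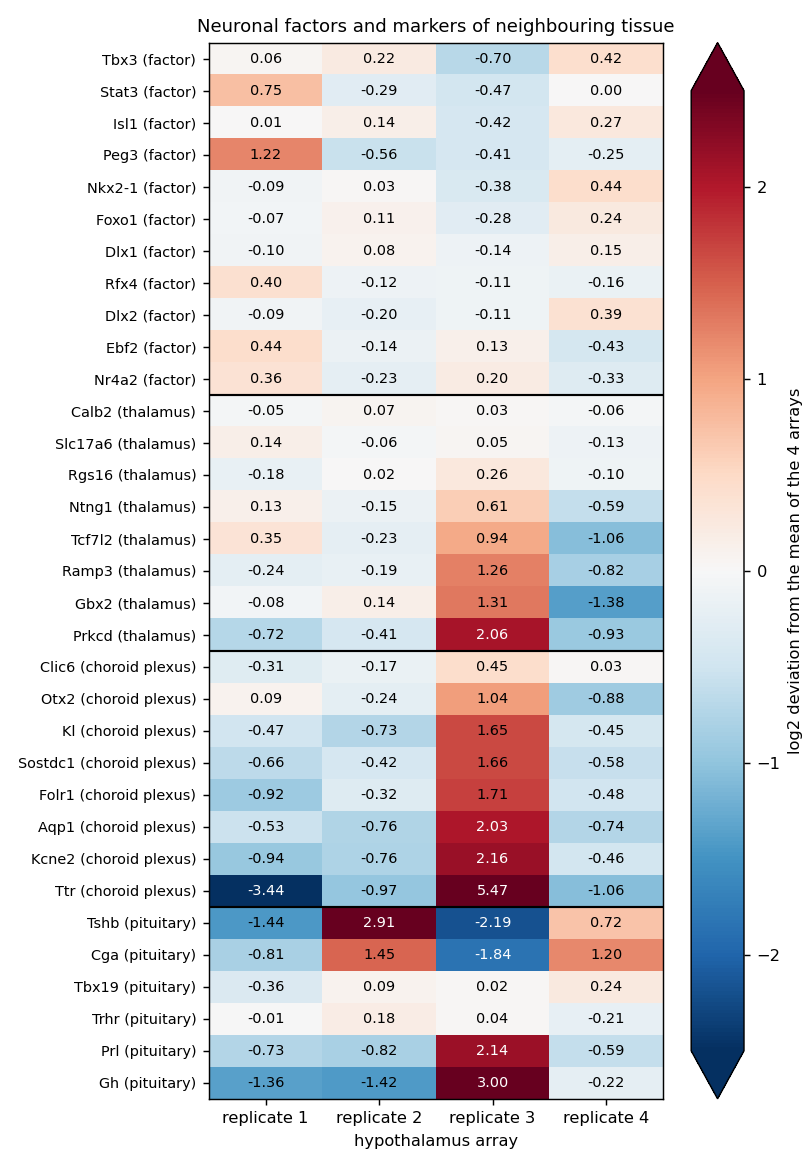
Deviation of the transcription factors and of thalamus, choroid plexus and pituitary markers from their own means over the 4 hypothalamus arrays, in log2 units (red above the mean, blue below). Most thalamus markers and the choroid plexus markers stand high on replicate 3 (Prkcd 2.06, Ttr 5.47) and most thalamus markers low on replicate 4 (Prkcd −0.93).

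The genes whose pattern over the 4 hypothalamus arrays was most like that of the 3 most variable peptides were found among 2871 genes with an SD of at least 0.2, by the mean absolute difference of centred log2 values. For Npy they were Pgrmc1 (0.12), Fam171a1 (0.139) and Crabp1 (0.148). For Cartpt ILMN_3123063 they were Cog2 (0.0272), Fam166b (0.0277) and Kcnip1 (0.0332). For Nts they were Paf1 (0.0108), Plin4 (0.0145) and S100a10 (0.0352). These are measures of likeness over 4 arrays only, and Nts is among the 3 by its SD with background correction but not without it or in the authors' values, where Gal takes its place.

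The receptors of these peptides were measured with a list of 19 genes, of which 18 had a probe and 10 were tested. All 10 were called higher in hypothalamus, and their median log2 difference was 2.38, or 1.41 with probes undetected in liver at their bounds. Of all 9456 tested genes, 43.1% were called in the direction of hypothalamus and 37.3% in that of liver, with a median of 0.11. As with the peptides, 9 of the 10 were detected on no liver array and passed the filter through hypothalamus alone. Ntsr2, a neurotensin receptor that is abundant in astrocytes, read 12.61 ± 0.03 in hypothalamus and 4.68 ± 0.17 in liver (SD, n = 4 each), at least 130.2-fold higher (limma adjusted p = 3.06e-12). The other neurotensin receptor Ntsr1 was higher by at least 5.86-fold in hypothalamus, and the orexin receptor Hcrtr1 at least 4.43-fold by its brightest probe. The dimmer Hcrtr1 probe ILMN_3136269 read 5.76, 5.79, 5.93 and 5.88 on hypothalamus replicates 1 to 4, and ILMN_3059046 was detected on 2 hypothalamus arrays. Among the neuropeptide Y receptors, Npy1r was at least 3.14-fold higher, Npy5r at least 2.25-fold and Npy2r at least 1.68-fold. Of the melanocortin receptors through which Pomc peptides act on feeding, Mc3r was at least 1.86-fold higher and Mc4r at least 1.14-fold, and the melanin-concentrating hormone receptor Mchr1 at least 1.24-fold. Sort1, a sorting protein that binds neurotensin, was detected on all 8 arrays and was 6.55-fold higher in hypothalamus (limma adjusted p = 8.88e-09), although its dimmer probes ILMN_1232295 and ILMN_2685772 were not called. The galanin receptors Galr1, Galr2 and Galr3, the melanocortin receptors Mc1r, Mc2r and Mc5r, and Npy6r were detected on no array, and Hcrtr2 on 2 hypothalamus arrays. No difference is given for these 8 genes. The count of 10 also held without hypothalamus replicate 3, with a median of 2.41.

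Genes for cutting and modifying the precursors, together with melanocortin accessory genes, formed a list of 16, of which 13 had a probe and 10 were tested. Hypothalamus was higher for 5 of these and liver for the other 5, where the shares over all tested genes were 43.1% and 37.3%. Of the 5 higher in hypothalamus, 3 were detected on at most 1 liver array and passed the filter through hypothalamus alone. The median log2 difference of the list was 0.03, and −0.0019 at the bounds. Scg5, the chaperone of the convertase that cuts Pomc and other precursors, was at least 161-fold higher in hypothalamus, and the convertase inhibitor Pcsk1n, detected on 1 liver array, at least 68.5-fold. Sdc3, a syndecan that acts with the melanocortin system, was 6.48-fold higher in hypothalamus. Mrap, an accessory protein of melanocortin receptors, was at least 16.7-fold higher in liver. With hypothalamus replicate 3 left out the counts were 5 and 5, with a median of 0.05.

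Transcription factors known from arcuate and lateral hypothalamic neurons numbered 25, with 21 having a probe and 11 tested. Of these, 7 were higher in hypothalamus, 3 were higher in liver and 1 was not called. The shares over all tested genes were 43.1% for hypothalamus and 37.3% for liver. Of the 7, 6 were detected on at most 1 liver array and so passed the filter through hypothalamus alone. The median log2 difference of the list was 1.13, and 0.11 at the bounds. Without hypothalamus replicate 3 the counts were 7 and 3, with a median of 1.14. Isl1, which is required for Pomc neurons, was at least 35.0-fold higher in hypothalamus and Dlx1, a factor of inhibitory neurons, at least 23.8-fold. Peg3, an imprinted zinc finger gene, was at least 4.37-fold higher by the mean of its arrays. It read 8.93, 7.16, 7.30 and 7.46 on hypothalamus replicates 1 to 4, with an SD of 0.82. Tbx3, a factor that arcuate neurons share with other cells, was 5.15-fold higher in liver. Over the hypothalamus arrays, 6 of 11 of these factors were lowest on replicate 3, against 26.4% of all genes detected on those arrays. Tbx3 deviated by 0.06, 0.22, −0.70 and 0.42 on replicates 1 to 4, and Isl1 by 0.01, 0.14, −0.42 and 0.27. Dlx1 deviated by −0.10, 0.08, −0.14 and 0.15. Peg3 was lowest on replicate 2 and deviated by 1.22, −0.56, −0.41 and −0.25.

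Hormone and nutrient sensing genes numbered 18, with 16 having a probe and 11 tested. Of these, 7 were higher in hypothalamus, 3 were higher in liver and 1 was not called. The shares over all tested genes were 43.1% for hypothalamus and 37.3% for liver. Of the 7, 3 were detected on at most 1 liver array and passed the filter through hypothalamus alone. Ntrk2, the receptor of brain-derived neurotrophic factor, was 41.8-fold higher in hypothalamus, and Bdnf itself was at least 4.34-fold higher. Crtc1, a coactivator that takes part in leptin signalling and was detected on 3 liver arrays, was at least 3.20-fold higher. The median log2 difference of the list was 0.65, and 0.46 at the bounds. When hypothalamus replicate 3 was left out the median was 0.66, and the counts were 6 in the direction of hypothalamus and 3 in that of liver, since Abcc8, a potassium channel subunit named after its values were seen, was no longer called. Prkaa2, a catalytic subunit of AMP-activated kinase, was 2.72-fold higher in liver. In the values normalized by the authors its log2 difference was −0.23 and was not called (limma adjusted p = 0.0888).

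Other hypothalamic neuropeptides formed a list of 30, with 27 having a probe and 20 tested. Of these, 17 were higher in hypothalamus, 0 were higher in liver and 3 were not called. Among all tested genes 43.1% were called in the direction of hypothalamus. These 17 were detected on at most 1 liver array, and 15 of them on none, so they passed the filter through hypothalamus alone and the count is a description. The median log2 difference of the 20 was 3.52, and 2.58 at the bounds. Without hypothalamus replicate 3 the counts were 17 and 0, with a median of 3.60. Oxytocin (Oxt), detected on 1 liver array, was at least 275-fold, vasopressin (Avp) at least 162-fold and thyrotropin-releasing hormone (Trh) at least 137-fold higher in hypothalamus. The 3 that were not called, named after their values were seen, were Kiss1, the kisspeptin gene of the reproductive axis (log2 difference −0.62, limma adjusted p = 0.105), the neuromedin B gene Nmb (0.33, limma adjusted p = 0.208) and the relaxin-3 gene Rln3 (−0.08, limma adjusted p = 0.797). Over the hypothalamus arrays, 11 of 19 peptides of this list were lowest on replicate 3 and 10 of 19 were highest on replicate 4. The receptors split into 4 of 10 lowest and 5 of 10 highest on replicate 3. Of all genes detected on those arrays, 26.4% were lowest and 25.6% highest on replicate 3. Of the detected probes, 24.8% were highest on replicate 4. The 5 pathway lists together held 62 tested genes. Of these, 46 (38 of them detected on at most 1 liver array) were called higher in hypothalamus and 11 called higher in liver, where the shares over all tested genes were 43.1% and 37.3%. Without hypothalamus replicate 3 the counts were 45 and 11, and the log2 differences of the 25 named genes of these lists that were tested moved by at most 0.213, with 25 keeping their call. The p-values measure only the spread between these arrays.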

How the data were processed

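Gene expression was measured in 4 hypothalamus and 4 liver samples of Fmod knockout mice. The deposited table gives a probe intensity on a linear scale, not normalized between arrays, and a detection p-value for each probe and array. The submitters' processing notes name lumi 2.10.0 and R 2.15.0 without a role, and the scanner settings and genome build are not given in the sources used. Intensity values after the authors' own normalization, whose method is not stated, served as an alternative.

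For the main values, limma 3.58.1 under R 4.3.3 was used. Its neqc step inferred negative controls from the detection p-values and applied normexp background correction with an offset of 16, quantile normalization and log2. Probes with a detection p under 0.05 on at least 4 of 8 arrays (13498 of 25697) were tested with lmFit and eBayes, two-sided, with tissue as the only term and Benjamini-Hochberg adjustment at 0.05. The precision is limited by 4 arrays per tissue. Quantile normalization gives both tissues one distribution, so tissue differences are relative to most probes. The platform annotation names 1 gene for 23978 probes, several for 0 and none for 1719. Gene IDs of 23962 probes matched the RefSeq table of GRCm38.p6. A gene in a list is represented by its brightest probe. The test was checked on simulated data with known changes. Alternatives were other normalizations, other filters, a replicate block and the leaving out of each array.

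The members and gene lists were chosen with earlier results of these data known. Named genes were every member probe, every measured receptor and pituitary gene, and from each other list up to 3 called genes with the largest difference in the direction of most called genes and 1 in the other direction. The rule was kept for the 5 pathway lists, while most other marker lists are given by counts. Ttr, Prkcd, Gbx2, Ramp3, Tcf7l2, Slc17a7, Alb, Ahsg, Apoa1 and Serpina1a were named after their values were seen. For likeness, the 3 nearest genes over 4 hypothalamus arrays were taken, passing over clone codes. Promoter sequences are from RefSeq.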

Additional observations from a re-analysis of the deposited data

Results flagged for a closer look

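Among 89 sets of 4 arrays tested for a single array far from the other 3, 6 stood out by Dixon's ratio above 0.829. Ratios were rounded to 3 digits, and chance gives about 1 in 20. Peg3 in hypothalamus lay at this limit with a rounded ratio of 0.829 and is not among the 6. It read 8.931 on replicate 1 and 7.157 to 7.460 on the others. In liver, Cartpt ILMN_3123063 read 5.909 on replicate 1 and 4.629 to 4.670 on the others. Nts ILMN_2929906 read 5.539 on liver replicate 2 and 4.383 to 4.563 on the others. Gal ILMN_2776034 read 4.484 on liver replicate 2 and 4.358 to 4.376 on the others, all of them undetected. In hypothalamus, Crtc1 read 8.103 on replicate 4 and 7.371 to 7.408 on the others. The choroid plexus markers Kl and Sostdc1 read 8.183 and 7.566 on replicate 3, with 5.810 to 6.090 and 5.252 to 5.488 on the others.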

How the results depend on the processing

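The 8 tested peptide probes were called higher in hypothalamus under every alternative run, which were normalization without background correction, median scaling, cyclic loess, the authors' normalized values, no filter, a stricter detection filter, a replicate block and the leaving out of each array in turn. Leaving out 1 array each, the count of called probes was 8 throughout, genes of the 5 pathway lists higher in hypothalamus numbered 45 to 46, and genes higher in liver 11 to 12. In the authors' values 7 list genes were higher in liver, against 11; the cause was not tested. The median log2 of all tested probes was 0.07, but 0.49 under median scaling and 0.39 in the authors' values, and the share of called probes higher in hypothalamus was 52.5%, 65.6% and 71.4%. Same-numbered arrays of both tissues share only a number in the labels, and their deviations from the tissue means correlated at 0.116, 0.0951, 0.0302 and 0.115. The replicate block left the 8 probes called and moved the count of called probes to 10750 from 10741. Sostdc1 was 0.86 (adjusted p = 0.103) under cyclic loess. The SD of Pmch was 0.0785 under median scaling and 0.0941 under cyclic loess. Probes undetected in liver set only bounds, and 4 arrays per tissue limit the precision.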
